A study of Mus musculus with 80 samples.

Results

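The hypothalamus and the neocortex of the same 16 female mice were compared, gene by gene, using every hypothalamus and every neocortex library of the deposited count table. Of the 77 libraries in that table, 32 belong to these regions, 16 from the hypothalamus and 16 from the neocortex, and each animal number occurs once in each region. All animals were C57BL/6 females (C57BL/6J in the study's methods) without a labelled genetic change, housed in 1 barrier room and born within a few days of each other. The 8 virgin females were age-matched and had not been mated. The 8 primiparous females had each been housed with a male from 8 weeks of age, had raised a single litter, and were harvested, according to the labels, 3 weeks after their pups were weaned. The study's methods give a longer interval after weaning, and they state that the virgin females were caged in a group and that the primiparous females alone had met males. State is the same for both libraries of an animal, so it drops out of the paired comparison of the regions. Transcripts were measured by sequencing polyadenylated RNA in single-end reads of 100 bases.

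The hypothalamus, at the base of the forebrain, holds small groups of neurons that each make their own neuropeptide. They control the pituitary gland, feeding, body temperature, sleep and reproduction. The neocortex arises from the pallium, the roof of the embryonic forebrain, and most of its neurons are glutamatergic pyramidal cells arranged in layers, with a smaller share of GABAergic interneurons. The regions are patterned in the embryo by different homeodomain and basic helix-loop-helix transcription factors, many of which stay expressed in adult neurons.

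Counted reads per library ranged from 7959192 to 23352639 in the hypothalamus (median 14543169) and from 8678050 to 31391961 in the neocortex (median 20498349). Levels are given as CPM, that is counts per 1000000 counted reads after TMM scaling (edgeR's correction for library composition, with factors of 1.02 to 1.07 in the hypothalamus and 0.912 to 0.992 in the neocortex). The whole hypothalamus but only the left neocortex of each animal was used, and the libraries of each region were pooled with each other for sequencing, so region, dissection and sequencing pool cannot be told apart. Each library came from a piece of tissue holding many cell types, so more cells of a type and more RNA per cell cannot be told apart either. The neocortex library of animal 427 stood apart from the other 15 neocortex libraries, with a median Euclidean distance to them of 52.7 on the log2(CPM + 4) scale against 22.3 to 34.5 for the others, and without that animal 4915 and 5003 genes were higher in the hypothalamus and the neocortex. The same-animal pairs lay 78.7 to 99.5 apart on this scale (median 83).

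Of the 13016 genes tested, 4877 (37.5%) had higher expression in the hypothalamus and 5007 (38.5%) had higher expression in the neocortex at an adjusted p below 0.05, 9884 genes (75.9%) in all. The test was edgeR's quasi-likelihood test with the animal as a block and Benjamini-Hochberg adjustment, and a gene is called higher below only where it passed. Ratios are fitted log2 ratios of hypothalamus to neocortex, positive toward the hypothalamus, with their SE after the sign ±. With 16 pairs this test also called small differences, since 5822 of the genes called differed by less than 1.5-fold and 83.9% of all genes tested lay within 2-fold. At 2-fold or more there were 1041 genes (8%) higher in the hypothalamus and 1046 genes (8.04%) higher in the neocortex. At 8-fold or more there were 170 (1.31%) and 135 (1.04%). The ranges of the 16 hypothalamus and the 16 neocortex libraries did not overlap for 1612 genes higher in the hypothalamus (12.4%) and 1591 genes higher in the neocortex (12.2%). The median log2 ratio of hypothalamus to neocortex over all genes tested was -0.0107, so counts of list members below are set beside a background in which about equal shares of genes were higher in either region. Over all genes 6075 were higher in the hypothalamus and 3858 in the neocortex with libraries scaled by their totals alone, 3818 and 6679 with a correction for gene length and GC content, and 2801 and 2854 in the 3 animals with low olfactory bulb markers described below, and list counts under these settings are read against those.

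**Figure D1:**
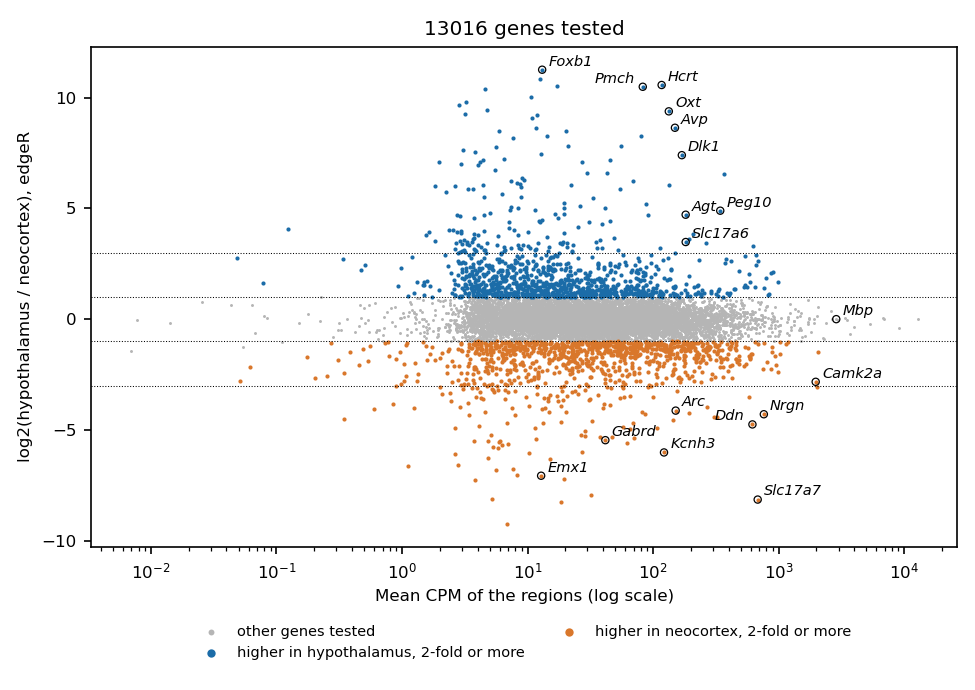
Each point is 1 of the 13016 genes tested, with its mean CPM over the regions on the horizontal log axis and its fitted log2 ratio of hypothalamus to neocortex on the vertical axis. Blue points (1041 genes) and orange points (1046 genes) were called and differed by 2-fold or more, dotted lines mark log2 ratios of 1 and 3 in both directions, and circles mark named genes.

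Among the genes with the largest ratios toward the hypothalamus were Foxb1, Sim1, Otp, Fezf1 and Nkx2-1, transcription factor genes of hypothalamic neurons. Foxb1, a forkhead gene expressed in the mammillary bodies, ranged from 17.2 to 40.2 CPM (median 25.9) in the hypothalamus and from 0 to 0.06925 CPM (median 0) in the neocortex. It had 7131 reads over the 16 hypothalamus libraries and 1 read over the 16 neocortex libraries. A ratio on so few reads is poorly bounded, and after scaling for depth it was 8207 with a 95% exact interval of 1473 to 324200, which covers counting error only. Sim1, needed to form oxytocin and vasopressin neurons, ranged from 15.6 to 31.1 CPM (median 21.8) in the hypothalamus and had 4 reads in the neocortex. Otp, which acts beside Sim1 in the same neurons, ranged from 16.2 to 38.8 CPM (median 21.5) against 10 reads in the neocortex. Hmx3 and Nkx2-4 had no read in any neocortex library. Against a floor of 3 reads over the 16 neocortex libraries, Hmx3 (1710 reads in the hypothalamus) was at least 656-fold higher and Nkx2-4 (2423 reads) at least 930-fold higher. No library of the hypothalamus overlapped a library of the neocortex for any of these genes. The rule that named Foxb1, Sim1, Otp, Fezf1 and Nkx2-1 required this of them.

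Of 36 transcription factors listed for the hypothalamus, 27 passed the filter on low counts and 21 of them were higher in the hypothalamus. The median log2 ratio over the 27 was 6.08, and it was the same with Hmx3 and Nkx2-4 at their bounds. The authors' deposited log2 values gave a median of 4.82, with 21 members called toward the hypothalamus. Nkx2-1, which specifies the ventral hypothalamus, ranged from 31.8 to 54.4 CPM (median 40.1) in the hypothalamus and from 0 to 0.277 CPM (median 0.0659) in the neocortex. Isl1, a LIM homeobox gene of arcuate neurons, had a mean of 25.4 CPM against 0.143 CPM, and Six3, a homeobox gene of the anterior forebrain, 44 CPM against 0.711 CPM. The ventromedial nucleus gene Nr5a1 had 3966 reads in the hypothalamus and 14 in the neocortex, a ratio of 326 (95% exact interval 194 to 597). Meis2 (log2 ratio -3.03 ± 0.11) was among those that went the other way. Meis2 ranged from 15.6 to 30.5 CPM (median 19.8) in the hypothalamus and from 101.5 to 233 CPM (median 179.7) in the neocortex, and Meis2 is also a marker of the olfactory bulb, whose other markers are described below. Dlx1, Dlx2, Pou3f2 and Arnt2 did not pass the test. Dlx1 and Dlx2, homeobox genes of GABAergic neurons, had log2 ratios of 0.90 and 1.02 in the 3 animals with low olfactory bulb markers in the neocortex. Those animals were chosen by these markers after the data were seen, so both ratios are a description with no test.

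Of 33 pallial transcription factors, 32 were tested, and 30 of these were higher in the neocortex and 2 in the hypothalamus, with a median log2 ratio of -2.11. Emx1, a homeobox gene of pallial progenitors and their excitatory progeny, ranged from 20.8 to 39.15 CPM (median 25.5) in the neocortex and from 0 to 0.875 CPM (median 0.042) in the hypothalamus (log2 ratio -7.07 ± 0.31, edgeR adjusted p = 3.56e-14). Tbr1, a T-box gene of deep-layer neurons, ranged from 101.5 to 163 CPM (median 144) in the neocortex and from 1.47 to 6.39 CPM (median 3.05) in the hypothalamus. The basic helix-loop-helix genes Neurod2 and Neurod6, both expressed in pyramidal neurons, had means of 91.4 and 73.2 CPM in the neocortex against 2.3 and 1.83 CPM in the hypothalamus. Mef2c, a gene of activity-dependent synapse regulation, had log2 ratio -4.42 ± 0.083. The neocortex and hypothalamus libraries did not overlap for any of these genes, which the rule that named Emx1 required of that gene. Tle4 (0.32 ± 0.055) and Foxp2 (0.57 ± 0.091) were higher in the hypothalamus although both also mark deep neocortical layers, and their sample ranges overlapped. Both calls were lost with the length and GC correction (Tle4 0.079, edgeR adjusted p = 0.139, and Foxp2 0.19, edgeR adjusted p = 0.0791) and in the 3 animals with low olfactory bulb markers described below (0.21 and 0.42, edgeR adjusted p = 0.243 and 0.0783).

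**Figure D2:**
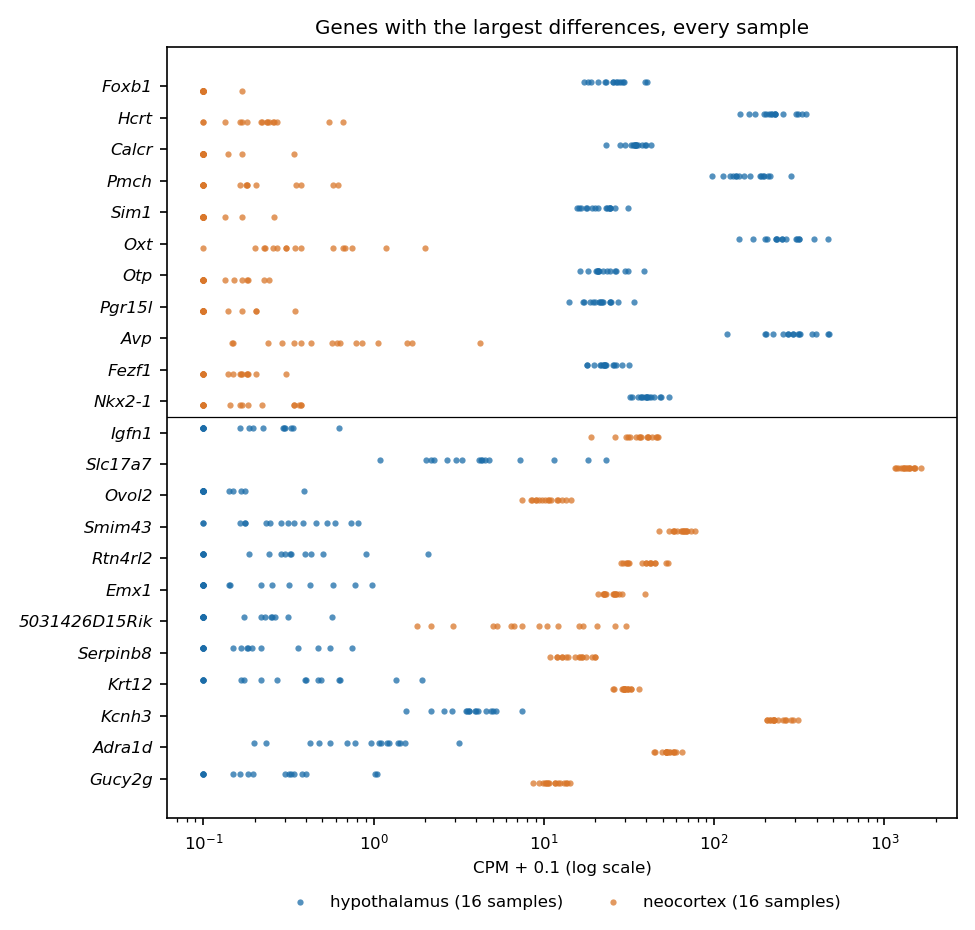
CPM + 0.1 on a log axis of reported genes among the 12 with the largest ratios toward the hypothalamus (above the line) and the 12 toward the neocortex (below it), taken from genes with at least 10 CPM in the higher region and no overlap of the regions. Each point is 1 library, 16 per region, and for Slc17a7 the hypothalamus libraries spread from 0.985 to 23 CPM (median 4.115).

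Among genes with 8-fold or larger ratios toward the hypothalamus and an available exon length, the neuropeptide genes Avp, Oxt and Hcrt had the highest levels per kilobase of exon. Oxt encodes oxytocin and Avp vasopressin, both made by magnocellular neurons. The genes are neighbours that are transcribed toward each other. Hcrt encodes the orexins, which maintain wakefulness, and Pmch encodes melanin-concentrating hormone, which promotes feeding and sleep. The sequences of the 200 bases before the transcript start on which RefSeq's promoter window rests (build GRCm38) are shown for Oxt, Avp, Hcrt and Pmch because these peptide genes had the largest ratios of any neuropeptide tested. Capitals mark the motif named for each gene on either strand. For Oxt (chr2:130575969-130576168, plus strand) it is TGACC, the core of a nuclear receptor site. RefSeq's span of the Oxt gene opens further upstream, at position 130574519, so this window lies inside that span, while those of the other 3 genes lie outside theirs. For Avp (chr2:130582589-130582788, minus strand) it is the E-box CACGTG. For Hcrt (chr11:100762932-100763131, minus strand) and Pmch (chr10:88090872-88091071, plus strand) it is TATAAA.
Oxt: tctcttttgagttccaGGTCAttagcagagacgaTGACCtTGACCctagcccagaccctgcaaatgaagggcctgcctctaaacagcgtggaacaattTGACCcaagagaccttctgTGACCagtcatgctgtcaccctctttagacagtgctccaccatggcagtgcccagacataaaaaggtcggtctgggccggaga
Avp: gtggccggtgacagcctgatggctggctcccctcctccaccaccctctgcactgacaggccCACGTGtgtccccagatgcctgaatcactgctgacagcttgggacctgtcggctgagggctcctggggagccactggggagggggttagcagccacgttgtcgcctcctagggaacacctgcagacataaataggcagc
Hcrt: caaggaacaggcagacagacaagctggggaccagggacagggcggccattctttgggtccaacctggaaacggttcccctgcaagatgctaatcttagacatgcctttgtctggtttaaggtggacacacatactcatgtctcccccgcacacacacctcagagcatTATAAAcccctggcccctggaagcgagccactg
Pmch: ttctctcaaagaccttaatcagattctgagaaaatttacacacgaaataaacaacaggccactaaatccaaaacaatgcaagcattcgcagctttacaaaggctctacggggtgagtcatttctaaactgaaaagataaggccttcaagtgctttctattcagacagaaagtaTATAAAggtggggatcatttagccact
In the 250 bases searched before the same start, on both strands, TGACC occurred 5 times in Oxt, and at least 1 occurrence was found in 31.8% of the 10260 promoters of tested genes that RefSeq provided. CACGTG occurred 1 time in Avp, starting at position -139 from that start, and in 8.54% of all promoters. TATAAA started at -33 in Hcrt and at -27 in Pmch, and occurred in 6.01% of all promoters. A match is a description of letters and was not tested as a binding site.

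Oxt ranged from 140.5 to 466 CPM (median 251) in the hypothalamus and from 0 to 1.91 CPM (median 0.227) in the neocortex (log2 ratio 9.38 ± 0.28, edgeR adjusted p = 1.05e-15). Avp ranged from 119 to 471 CPM (median 292) in the hypothalamus and from 0.0475 to 4.14 CPM (median 0.49) in the neocortex (log2 ratio 8.64 ± 0.28). The highest neocortex library for both genes came from animal 4488, and it still lay below every hypothalamus library, as the rule that named both genes required. Hcrt ranged from 141 to 346 CPM (median 223) in the hypothalamus and from 0 to 0.557 CPM (median 0.128) in the neocortex (log2 ratio 10.57 ± 0.15). Pmch ranged from 97.1 to 281 CPM (median 155) in the hypothalamus and from 0 to 0.516 CPM (median 0.0709) in the neocortex (log2 ratio 10.49 ± 0.22). Per kilobase of exon, the mean hypothalamic levels in RPKM (CPM divided by exon length in kilobases) were 516 for Avp, 496 for Oxt, 312 for Hcrt and 221 for Pmch. For comparison, the neuropeptide processing enzyme Cpe stood at 865 RPKM in the same libraries. In each of these peptide genes the highest hypothalamus library was over 2-fold the lowest.

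Of 10 feeding and arousal peptides, 7 were tested and 6 were higher in the hypothalamus, with a median log2 ratio of 4.79. Agrp, which drives feeding, had a mean of 9.65 CPM against 0.324 CPM, and Pomc, the precursor of the appetite-suppressing melanocortins, 80.1 CPM against 2.99 CPM. Cartpt (3.66 ± 0.10) and Gal, encoding galanin (4.75 ± 0.26), were also higher in the hypothalamus. Npy, which is made by arcuate neurons and also by neocortical interneurons, was the exception and ranged from 15.9 to 48.8 CPM (median 30.15) in the hypothalamus and from 83.6 to 158 CPM (median 91.9) in the neocortex (log2 ratio -1.73 ± 0.10). Of 6 releasing hormone genes tested, 4 were higher in the hypothalamus and 2 in the neocortex. Ghrh, growth hormone-releasing hormone, had a mean of 8 CPM against 0.05315 CPM and log2 ratio 6.96 ± 0.24, and Trh, thyrotropin-releasing hormone, had log2 ratio 2.47 ± 0.30, against 4.69 in the 3 animals with low olfactory bulb markers. Trh is one of the markers by which those animals were chosen, so its ratio there is a description with no test. Crh, corticotropin-releasing hormone (-1.39 ± 0.15), and Sst, somatostatin (-0.49 ± 0.072), were higher in the neocortex, where interneurons express them. Kiss1 and Gnrh1, which control reproduction, did not pass the filter on low counts.

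Of 15 other neuropeptide genes tested, 8 were higher in the hypothalamus (background 37.5%) and 6 in the neocortex (background 38.5%). Nts, neurotensin (4.42 ± 0.17), Tac1, the substance P precursor (2.42 ± 0.069), Adcyap1, PACAP (2.24 ± 0.071), and Pdyn, prodynorphin (1.77 ± 0.089), were higher in the hypothalamus. Cck, cholecystokinin (-4.22 ± 0.10), Vip, vasoactive intestinal peptide (-2.14 ± 0.20), and Cort, cortistatin (-5.50 ± 0.33), were higher in the neocortex. Cck ranged from 306.5 to 617 CPM (median 355) in the neocortex and from 14.9 to 28.8 CPM (median 18.9) in the hypothalamus. Of 14 genes of prohormone processing and dense-core granules, 9 were higher in the hypothalamus and 4 in the neocortex, with a median log2 ratio of 0.33. Scg2, a secretogranin, ranged from 1091 to 1390.0 CPM (median 1250.0) in the hypothalamus and from 243 to 448 CPM (median 359.8) in the neocortex. Resp18, a protein of the neuroendocrine secretory pathway, had log2 ratio 2.66 ± 0.063, and the prohormone convertase Pcsk1 1.54 ± 0.12, while the convertase Pcsk2 (-0.66 ± 0.039) and the granin Chgb (-0.85 ± 0.039) were higher in the neocortex.

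Among genes with at least 100 CPM in the neocortex, the largest ratio toward that region was that of Slc17a7, which encodes VGLUT1, the vesicular glutamate transporter of pyramidal neurons. It ranged from 1157 to 1642 CPM (median 1346) in the neocortex and from 0.985 to 23 CPM (median 4.115) in the hypothalamus (log2 ratio -8.14 ± 0.32, edgeR adjusted p = 3.29e-13). Hypothalamus libraries of animals 425, 4490 and 4493 held 23.0, 18.1 and 11.4 CPM and the other 13 held at most 7.13 CPM. Slc17a6, which encodes VGLUT2, the transporter of most subcortical glutamatergic neurons, went the other way and ranged from 265 to 417 CPM (median 330.1) in the hypothalamus and from 20.55 to 40.7 CPM (median 29.9) in the neocortex (log2 ratio 3.48 ± 0.075). The 200 bases before the start of Slc17a7 (chr7:45163721-45163920, plus strand) are shown, as the gene with the largest ratio among these, with the GC-box core GGGCGG in capitals.
Slc17a7: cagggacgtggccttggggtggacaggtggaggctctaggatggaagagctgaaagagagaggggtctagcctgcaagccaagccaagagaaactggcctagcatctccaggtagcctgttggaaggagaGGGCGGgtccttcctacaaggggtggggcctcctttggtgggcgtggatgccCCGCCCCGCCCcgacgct
On either strand GGGCGG occurred 3 times in Slc17a7 and in 60.2% of all promoters. Krt12 encodes a keratin best known from the cornea, and it ranged from 25.3 to 36.05 CPM (median 29.65) in the neocortex and from 0 to 1.82 CPM (median 0.233) in the hypothalamus.

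The other genes that the same rule named toward the neocortex were Igfn1, Ovol2, Smim43, Rtn4rl2, Emx1, 5031426D15Rik, Serpinb8, Kcnh3, Adra1d and Gucy2g. Igfn1, an immunoglobulin-like and fibronectin domain gene, ranged from 18.9 to 46.6 CPM (median 37.1) in the neocortex and from 0 to 0.526 CPM (median 0.0911) in the hypothalamus. Rtn4rl2, a Nogo receptor homologue, ranged from 28.3 to 53.4 CPM (median 39.8) in the neocortex and from 0 to 2 CPM (median 0.193) in the hypothalamus. Kcnh3, an ether-a-go-go-type potassium channel of the forebrain, ranged from 203 to 312 CPM (median 226) in the neocortex and from 1.45 to 7.31 CPM (median 3.67) in the hypothalamus (log2 ratio -6.01 ± 0.10). Adra1d, an adrenergic receptor, ranged from 44.5 to 64.4 CPM (median 52.9) and from 0.0973 to 3.06 CPM (median 0.924) in the same order. The transcript 5031426D15Rik varied most among neocortex libraries of this set, from 1.71 to 30.1 CPM (median 8.32).

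Of the genes of enzymes and transporters that define transmitter type, 2 of 6 glutamate genes were higher in the hypothalamus and 4 in the neocortex, and 5 of 7 GABA genes in the hypothalamus and 2 in the neocortex. Gad2, a GABA-synthesising enzyme, ranged from 412.5 to 586.5 CPM (median 496) in the hypothalamus and from 139 to 257 CPM (median 191) in the neocortex (log2 ratio 1.37 ± 0.058), whereas Gad1, its paralogue, was higher in the neocortex (-0.65 ± 0.064), a call that was lost in the 3 animals with low olfactory bulb markers (-0.17, edgeR adjusted p = 0.276). Slc32a1, the vesicular GABA transporter, was higher in the hypothalamus by a small ratio (0.44 ± 0.082). Slc6a11, the astrocytic GABA transporter GAT-3, ranged from 814 to 1070.0 CPM (median 941) in the hypothalamus and from 153 to 303.5 CPM (median 228) in the neocortex. Of 9 amine and acetylcholine genes tested, 8 were higher in the hypothalamus and 1 in the neocortex, with a median log2 ratio of 2.27, against 3.25 in the 3 animals with low olfactory bulb markers. Th, on this list, is one of the markers by which those animals were chosen, so the second median is a description with no test. Hdc, the histamine-synthesising enzyme of tuberomammillary neurons, ranged from 46 to 85.2 CPM (median 65.4) in the hypothalamus and from 0.285 to 2.4 CPM (median 1.51) in the neocortex. Slc6a3, the dopamine transporter, had log2 ratio 4.58 ± 0.37, Ddc, aromatic amino acid decarboxylase, 3.50 ± 0.092, and Slc18a2, the vesicular monoamine transporter, 3.23 ± 0.10. Th, tyrosine hydroxylase, had a smaller ratio (1.07 ± 0.35, edgeR adjusted p = 0.011) with overlapping ranges, from 43.8 to 77.6 CPM (median 53.5) in the hypothalamus and from 1.9 to 61.6 CPM (median 37.3) in the neocortex, where it went with the olfactory bulb markers described below. The call of Th was lost in the primiparous animals alone (1.06, edgeR adjusted p = 0.183) and in the animals with 3-digit numbers alone (1.29, edgeR adjusted p = 0.108).

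Of 20 steroid and nuclear hormone receptors tested, 6 were higher in the hypothalamus (background 37.5%) and 9 in the neocortex (background 38.5%). Esr1, estrogen receptor alpha, ranged from 13.45 to 24 CPM (median 18.7) in the hypothalamus and from 0.204 to 2.09 CPM (median 1.19) in the neocortex (log2 ratio 3.92 ± 0.17). Pgr, the progesterone receptor, ranged from 30.6 to 52.2 CPM (median 41.7) and from 26.3 to 50.8 CPM (median 41.1) in the same order and did not pass the test (edgeR adjusted p = 0.262), although it passed toward the hypothalamus with library totals alone (0.23, edgeR adjusted p = 0.0176) and toward the neocortex with the length and GC correction (-0.19, edgeR adjusted p = 0.0391). Of 12 metabolic and pituitary hormone receptor genes, 9 were higher in the hypothalamus and 2, Igf1r and Cntfr, in the neocortex, neither of which passed in the 3 animals with low olfactory bulb markers (edgeR adjusted p = 0.122 for Igf1r and 0.378 for Cntfr). Cntfr also missed when libraries were scaled by their totals alone (edgeR adjusted p = 0.239). The list gave 8 and 1 toward the hypothalamus and the neocortex with the length and GC correction. It gave 6 and 0 in the 3 animals, where fewer samples were fitted. Prlr, the prolactin receptor, ranged from 37.05 to 63.35 CPM (median 49.7) in the hypothalamus and from 0.815 to 2.45 CPM (median 1.38) in the neocortex (log2 ratio 5.09 ± 0.10). Calcr, the calcitonin receptor, ranged from 23 to 42.45 CPM (median 34.4) in the hypothalamus and had 5 reads in the neocortex. Pgr15l, a G protein-coupled receptor gene, ranged from 14 to 33.95 CPM (median 21.45) in the hypothalamus and from 0 to 0.247 CPM (median 0) in the neocortex. Irs4, an insulin receptor substrate, ranged from 146 to 184 CPM (median 156) in the hypothalamus and from 0.0498 to 0.902 CPM (median 0.5415) in the neocortex. Ghsr, the ghrelin receptor (6.75 ± 0.21), and Mc3r, a melanocortin receptor (5.86 ± 0.25), were also higher in the hypothalamus, whereas Lepr, the leptin receptor, had a ratio near 2-fold (1.03 ± 0.14) that did not pass in the 3 animals with low olfactory bulb markers (0.49, edgeR adjusted p = 0.214).

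Of 29 neuropeptide receptors tested, 19 were higher in the hypothalamus (background 37.5%) and 9 in the neocortex (background 38.5%), with a median log2 ratio of 0.63. Galr1, a galanin receptor (5.54 ± 0.19), Avpr1a, a vasopressin receptor (4.68 ± 0.15), Tacr3, the neurokinin B receptor (4.49 ± 0.10), Oprm1, the mu opioid receptor (3.88 ± 0.19), and Npy2r (3.40 ± 0.12) were higher in the hypothalamus. Vipr1 (-4.65 ± 0.16) and Cckbr (-2.47 ± 0.073) were higher in the neocortex, as were Vip and Cck themselves. Oxtr, the oxytocin receptor, was higher in the hypothalamus by a ratio under 2-fold (0.54 ± 0.084), which did not pass in the 3 animals with low olfactory bulb markers (0.28, edgeR adjusted p = 0.304). Of 31 amine and acetylcholine receptors, 15 were higher in the hypothalamus and 14 in the neocortex. Chrm5 (5.64 ± 0.22), Htr2c (2.58 ± 0.074) and Drd2 (2.83 ± 0.16) stood toward the hypothalamus, and Chrm1 (-3.50 ± 0.065) and Chrm4 (-3.28 ± 0.091), both muscarinic receptors, toward the neocortex.

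Ligand-gated channels differed by subunit. Of 15 GABA-A receptor subunits, 7 were higher in the hypothalamus (background 37.5%) and 4 in the neocortex (background 38.5%). After a correction for gene length and GC content these counts were 5 and 7. Gabre (epsilon) ranged from 24.2 to 34.9 CPM (median 28.9) in the hypothalamus and from 0 to 0.346 CPM (median 0.0809) in the neocortex. Gabrq (theta) ranged from 36.3 to 49.5 CPM (median 41.6) in the hypothalamus and from 0 to 0.493 CPM (median 0.181) in the neocortex. Gabrd (delta), a subunit of extrasynaptic receptors, ranged from 62.4 to 109.9 CPM (median 78.6) in the neocortex and from 0.379 to 8.55 CPM (median 1.35) in the hypothalamus. The regions did not overlap for these 3 subunits, and the ratio of the common subunit Gabrb2 was small (-0.32 ± 0.075). Of 7 glycine receptor and transport genes, 5 were higher in the hypothalamus and 2 in the neocortex. The glycine receptor subunits Glra1 (4.91 ± 0.13), Glra3 (3.80 ± 0.23) and Glra2 (2.23 ± 0.10) were among the former. Of 17 ionotropic glutamate receptor subunits, 9 were higher in the hypothalamus and 7 in the neocortex. The NMDA receptor subunits Grin2a (-1.08 ± 0.21) and Grin2b (-1.60 ± 0.076) were higher in the neocortex, and Grin2d (1.64 ± 0.089) and Grin3a (2.13 ± 0.15) in the hypothalamus.

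Of 53 potassium channel genes, 34 were higher in the neocortex and 12 in the hypothalamus, with a median log2 ratio of -0.49. Besides Kcnh3, the inward rectifier Kcnj4 ranged from 117 to 236.5 CPM (median 159) in the neocortex and from 5.965 to 17 CPM (median 8.16) in the hypothalamus, and the modulatory subunits Kcns1 (-3.94 ± 0.13) and Kcnv1 (-3.50 ± 0.12) were higher in the neocortex. Kcna3 (2.37 ± 0.19) and Kcna5 (2.31 ± 0.11) were higher in the hypothalamus. Of 34 sodium, calcium and HCN channel genes, 11 were higher in the hypothalamus (background 37.5%) and 15 in the neocortex (background 38.5%). These counts were 16 and 15 when libraries were scaled by their totals alone, and 10 and 19 with the length and GC correction. Scn9a, a voltage-gated sodium channel, ranged from 37.9 to 70.6 CPM (median 60.8) in the hypothalamus and from 2.15 to 4.21 CPM (median 2.64) in the neocortex, and the sodium channel subunit Scn4b (-2.10 ± 0.062) was higher in the neocortex.

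All 33 calcium-calmodulin and plasticity genes were tested, and 32 were higher in the neocortex, with a median log2 ratio of -1.93. Camk2a, the alpha subunit of calcium/calmodulin kinase II, ranged from 2397 to 4455 CPM (median 3425) in the neocortex and from 430.4 to 592 CPM (median 477) in the hypothalamus (log2 ratio -2.83 ± 0.062). Nrgn, neurogranin, which binds calmodulin in dendritic spines, ranged from 1131 to 2367 CPM (median 1387) in the neocortex and from 62.55 to 100.4 CPM (median 69.45) in the hypothalamus. Ddn, dendrin, ranged from 1041 to 1459 CPM (median 1172) in the neocortex and from 34.5 to 66.5 CPM (median 41.9) in the hypothalamus, and Itpka, a spine-associated inositol kinase, had log2 ratio -4.92 ± 0.081. The scaffold genes Shank1 (-1.38 ± 0.10), Shank3 (-1.28 ± 0.089) and Dlg4 (-1.02 ± 0.052) had smaller ratios in the same direction. Ntrk2, the BDNF receptor, was the member higher in the hypothalamus (1.10 ± 0.064), while Bdnf was higher in the neocortex (-0.67 ± 0.078).

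Of 18 immediate early genes, which neurons transcribe within minutes of activity, 17 were higher in the neocortex and none in the hypothalamus, with a median log2 ratio of -2.12. Arc ranged from 158 to 438 CPM (median 277.5) in the neocortex and from 11.3 to 26.1 CPM (median 15.6) in the hypothalamus. Egr1 ranged from 193.5 to 396 CPM (median 269) and from 18.9 to 39.7 CPM (median 30.2) in the same order, and Egr3 had log2 ratio -5.25 ± 0.15. Fos (-1.25 ± 0.10) and Npas4 (-2.16 ± 0.11) had smaller ratios, and the ranges of Npas4 overlapped, from 10.3 to 36.65 CPM (median 21) in the neocortex and from 2.96 to 12.3 CPM (median 3.81) in the hypothalamus. Jun did not pass the test. The core of the cyclic AMP response element, TGACGT, was searched for before the start of Fos, the member best known as a marker of activity, and its 200-base window (chr12:85473690-85473889, plus strand) is printed with that motif in capitals on either strand.
Fos: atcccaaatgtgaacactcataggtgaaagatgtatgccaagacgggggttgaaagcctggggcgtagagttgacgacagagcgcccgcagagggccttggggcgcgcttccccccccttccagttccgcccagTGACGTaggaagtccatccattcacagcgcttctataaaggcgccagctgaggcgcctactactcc
TGACGT started at -66 in Fos and occurred in 10.2% of all promoters.

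Imprinted genes, which are expressed from the maternal or the paternal copy alone in at least some tissues, were mostly higher in the hypothalamus. Of 30 tested, 25 were higher in the hypothalamus (background 37.5%), 1 in the neocortex and 4 did not pass the test, with a median log2 ratio of 1.92. Dlk1, a Notch-like transmembrane protein, ranged from 298 to 387 CPM (median 333) in the hypothalamus and from 0.795 to 4.065 CPM (median 1.65) in the neocortex. Peg10, a retrotransposon-derived gene, ranged from 553 to 802 CPM (median 662) in the hypothalamus and from 10.7 to 30.9 CPM (median 22.2) in the neocortex. Peg3, a zinc-finger gene linked to maternal care in mice, ranged from 861.5 to 1014 CPM (median 945) in the hypothalamus and from 37.2 to 179 CPM (median 139.7) in the neocortex. Magel2 (6.61 ± 0.11) and Ndn (2.17 ± 0.048), which lie in the region lost in Prader-Willi syndrome, and Asb4 (7.08 ± 0.15), Nnat (2.73 ± 0.075) and Grb10 (2.74 ± 0.056) were also higher, and the ranges of the regions did not overlap for any of them. Meg3, an abundant noncoding RNA, had means of 3454 and 3574 CPM and did not pass the test, but passed toward the neocortex with the length and GC correction (-0.32, edgeR adjusted p = 0.0218). Igf2 was the member higher in the neocortex (-1.17 ± 0.17). It ranged from 41.6 to 71 CPM (median 56) in the neocortex and from 16.1 to 86.65 CPM (median 23.3) in the hypothalamus with overlap. The highest hypothalamus library for Igf2 came from animal 4489, which also had the highest meningeal marker sum of that region, 939 CPM. Igf2 is expressed by meningeal and choroid plexus cells. Of 9 meningeal markers 7 were higher in the neocortex, while of 7 choroid plexus markers 4 were higher in the hypothalamus and 3 in the neocortex, and their part in the difference of Igf2 was not tested.

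Of 19 core clock genes, 12 were higher in the neocortex (background 38.5%) and 5 in the hypothalamus (background 37.5%). Npas2, a forebrain partner of Arntl, had log2 ratio -2.21 ± 0.13, Per1 -0.77 ± 0.067 and Arntl -0.74 ± 0.051, while Clock (0.36 ± 0.10) and Bhlhe41 (1.04 ± 0.08) were higher in the hypothalamus. Clock stood at -0.015 with the length and GC correction (edgeR adjusted p = 0.844) and at -0.041 in the 3 animals with low olfactory bulb markers (edgeR adjusted p = 0.852), and the 5 calls toward the hypothalamus in this list fell to 2 and 1 under these settings. Of 52 cadherin and axon guidance genes, 27 were higher in the hypothalamus (background 37.5%) and 20 in the neocortex (background 38.5%). These counts were 24 and 24 after the length and GC correction. Robo3 (-5.25 ± 0.14) and Plxnd1 (-2.48 ± 0.071) stood toward the neocortex, and Pcdh11x (2.35 ± 0.17), Nrp2 (2.11 ± 0.076) and Slit2 (2.01 ± 0.11) toward the hypothalamus. Of 23 genes that mark layers of the neocortex, 10 were higher in the neocortex (background 38.5%) and 6 in the hypothalamus (background 37.5%). Lamp5 (-4.53 ± 0.071) and Cplx3 (-4.03 ± 0.10) were among the former, while Calb1 (0.87 ± 0.06), Rasgrf2 (0.79 ± 0.054) and Nxph4 (2.52 ± 0.16), each also used as a layer marker, were higher in the hypothalamus. Of 20 genes of neocortical interneurons, 13 were higher in the neocortex (background 38.5%), among them Pvalb (-2.54 ± 0.086) and Lhx6 (-1.92 ± 0.10). The other 7 were higher in the hypothalamus (background 37.5%), among them Nos1 (1.69 ± 0.19) and Calb2 (1.81 ± 0.29). Of 68 cytosolic ribosomal protein genes, 44 did not pass the test, 8 were higher in the hypothalamus and 16 in the neocortex, an order that turned to 23 and 8 when libraries were scaled by their totals alone, while the length and GC correction gave 10 and 37 and the 3 animals with low olfactory bulb markers 4 and 3.

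**Figure D3:**
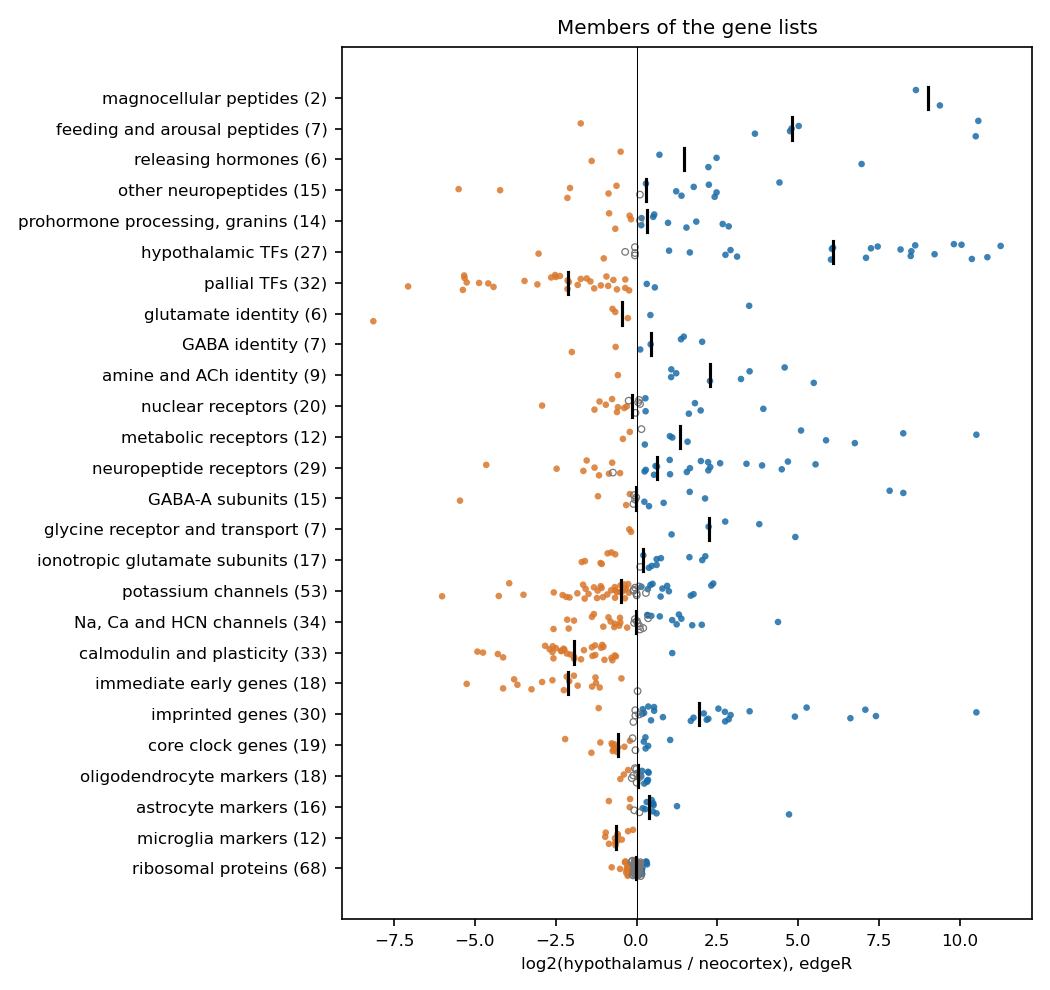
Each row is a gene list with the number of its tested members in brackets, and each point is the fitted log2 ratio of hypothalamus to neocortex of 1 member. Blue and orange points passed the test toward hypothalamus and neocortex, open points did not, and the black bar is the median, which lies at 6.08 for hypothalamic transcription factors, -2.11 for pallial ones and 1.92 for imprinted genes.

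Of 11 general neuronal genes tested, 7 were higher in the neocortex, 4 of them by 2-fold or more, and 3 in the hypothalamus, none by 2-fold. Their sum ranged from 5790.0 to 6476 CPM in the hypothalamus and from 8788 to 10954 CPM in the neocortex, without overlap. After the length and GC correction 9 and 2 were higher in the neocortex and the hypothalamus, and in the 3 animals with low olfactory bulb markers 6 and 0. Snap25 (-1.46 ± 0.053), a synaptic vesicle fusion protein, and Rbfox3 (-1.80 ± 0.06), the NeuN gene, were higher in the neocortex, whereas Tubb3 (0.18 ± 0.054), a tubulin of neurons, was slightly higher in the hypothalamus, a call lost in the 3 animals (edgeR adjusted p = 0.0689). Of 18 oligodendrocyte and myelin genes, 8 were higher in the hypothalamus, 3 in the neocortex and 7 did not pass the test, with a median log2 ratio of 0.0544, and after the length and GC correction 6 and 8 were higher in the hypothalamus and the neocortex, against 1 and 1 in the 3 animals with low olfactory bulb markers. Mbp, myelin basic protein, ranged from 2473 to 3318 CPM (median 2809) in the hypothalamus and from 2420.0 to 3466 CPM (median 2870.0) in the neocortex, one of the smallest differences among abundant genes. All 5 oligodendrocyte precursor markers tested were higher in the hypothalamus, with Pdgfra at 0.60 ± 0.063. Of 16 astrocyte markers, 11 were higher in the hypothalamus and 3 in the neocortex, against 10 and 5 with the length and GC correction and 7 and 2 in the 3 animals. Their sum overlapped between the regions, with 6813 to 8698 CPM (median 7678) in the hypothalamus and 6590.0 to 8966 CPM (median 8325) in the neocortex. Agt, angiotensinogen, ranged from 289.9 to 431 CPM (median 333) in the hypothalamus and from 8.21 to 24.3 CPM (median 12.55) in the neocortex, whereas Gfap (0.49 ± 0.078) differed less and Slc1a2, the glutamate transporter GLT-1 (-0.86 ± 0.077), was higher in the neocortex. All 12 microglia markers were higher in the neocortex, with a median log2 ratio of -0.62. Their sum ranged from 353 to 452 CPM in the hypothalamus and from 454 to 653 CPM in the neocortex. These ranges nearly met, and their separation rests on the TMM scaling. Taken singly, 3 of the 12 markers had ranges without overlap. With library totals alone 11 of the 12 were higher in the neocortex.

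Of 14 tanycyte and ependymal genes, which mark cells that line the third ventricle, 10 were higher in the hypothalamus and 3 in the neocortex. Gpr50, a tanycyte receptor, had a mean of 17.2 CPM against 0.381 CPM, and Ccdc153 and Tmem212, genes of ciliated ependymal cells, had log2 ratios of 3.21 ± 0.11 and 3.47 ± 0.14. Dio2 (-2.99 ± 0.10), which makes active thyroid hormone in tanycytes and in astrocytes, and Crym (-2.91 ± 0.12) were higher in the neocortex.

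Markers of tissues that adjoin the regions were present in some libraries. Of 11 olfactory bulb markers, 8 were higher in the neocortex and 2, each by 2-fold or more, in the hypothalamus. The sum of the 11 ranged from 318 to 383 CPM in the hypothalamus and from 307 to 962 CPM in the neocortex. In the neocortex the libraries of animals 405, 413 and 425 summed to 307 to 355 CPM and the other 13 to 564 to 962 CPM. Cdhr1, a cadherin of mitral and tufted cells, ranged from 1.31 to 12.5 CPM in those 3 neocortex libraries and from 48.2 to 140 CPM in the other 13. Eomes, a T-box gene of the same cells, ranged from 0.317 to 2.76 CPM and from 9.69 to 32.8 CPM, and Th from 1.9 to 4.32 CPM and from 15.1 to 61.6 CPM. Meis2 ranged from 101 to 118 CPM in the 3 neocortex libraries and from 149 to 233 CPM in the other 13, and both ranges lay above all 16 hypothalamus libraries. The 5 called genes whose within-animal difference varied most over animals were Cdhr1, Omp, Doc2g, S100a5 and Th, and Omp and S100a5 mark olfactory sensory neurons, whose axons reach the bulb. Their part in the differences of other genes was not tested. A fit of these 3 animals alone was added after the data were seen. The animals were chosen by the sum of these markers, so the values of the markers in that fit are a description with no test. Cdhr1 then stood at -0.60, Omp at 0.87 and Meis2 at -2.38. Th stood at 4.24 and Trh at 4.69 in these animals, against 1.07 and 2.47 over all 16. In the same animals 23 of 27 hypothalamic transcription factors were higher in the hypothalamus, 29 of 32 pallial ones in the neocortex, and 21 of 30 imprinted genes in the hypothalamus. Any bulb marker that is also on these lists, such as Meis2 on the hypothalamic one, enters them as a description with no test.

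Of 9 meningeal and fibroblast markers tested, 7 were higher in the neocortex, and their sum ranged from 267 to 939 CPM in the hypothalamus and from 670.0 to 1573 CPM in the neocortex. The choroid plexus genes Ttr (-3.55 ± 0.37) and Aqp1 (-4.81 ± 0.35) were higher in the neocortex, with Ttr at 5.32 to 81.1 CPM (median 17.3) there and at 0.0888 to 6.18 CPM (median 1.56) in the hypothalamus. Clic6 (2.90 ± 0.14) and Kl (1.37 ± 0.11), on the same list, were higher in the hypothalamus. Of the pituitary markers, Prl and Gh were tested and both were called toward the hypothalamus (log2 ratios 1.52 ± 0.59 and 1.58 ± 0.44). In the 3 animals with low olfactory bulb markers their ratios lay toward the neocortex (-1.39 and -0.73, edgeR adjusted p = 0.142 and 0.525). Without the replicate block neither passed (edgeR adjusted p = 0.25 and 0.331), and the call of Prl was also lost without animal 414, 421, 4489, 4490 or 4491 (edgeR adjusted p = 0.06 to 0.0663). Prl ranged from 0 to 115 CPM (median 0.961) in the hypothalamus and from 0 to 78.5 CPM (median 0.329) in the neocortex. The hypothalamus libraries of animals 414, 427 and 4490 held 56.5, 92.1 and 115 CPM of Prl and the other 13 held at most 14.5 CPM. The highest neocortex libraries came from the same 3 animals, with 16.2, 78.5 and 27.4 CPM. Of 9 thalamus markers, 8 were higher in the hypothalamus, with Tcf7l2 at 2.28 ± 0.11. Of 12 striatum markers, 7 were higher in the hypothalamus (background 37.5%) and 4 in the neocortex (background 38.5%), and of 10 hippocampus markers, 5 and 3. The part of adjoining tissue in these differences was not tested.

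**Figure D4:**
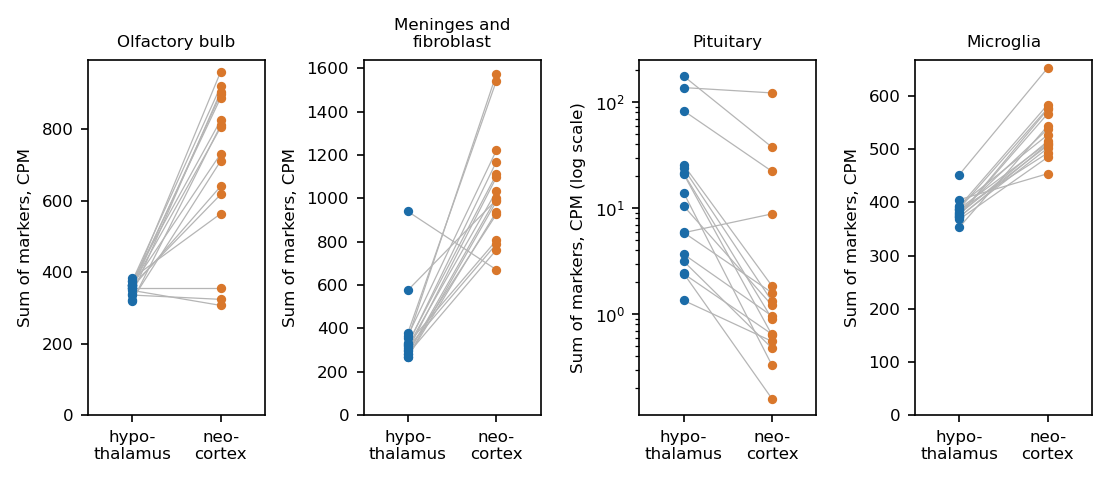
Summed CPM of 4 marker lists in each library, with a line joining the libraries of an animal (16 animals) and a log axis for the pituitary. For the olfactory bulb 3 neocortex libraries lie at 307 to 355 CPM and 13 at 564 to 962 CPM.

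Some abundant genes had ratios near 1, which depended on the scaling. Among genes with at least 100 CPM in both regions, the 5 with ratios nearest to 1 were Ppp1cb, a protein phosphatase subunit, Atp9a, a phospholipid flippase, Rtn3, a reticulon, Mbp and Daam2. Ppp1cb ranged from 177 to 288 CPM (median 217) in the hypothalamus and from 161 to 294 CPM (median 235) in the neocortex, and it was higher in the hypothalamus in 8 of 16 animals. Rtn3 ranged from 1019 to 1362 CPM (median 1184) in the hypothalamus and from 959 to 1342 CPM (median 1212) in the neocortex. None of the 5 passed the test, but each passed under another scaling. Ppp1cb (-0.36), Rtn3 (-0.25), Mbp (-0.18) and Daam2 (-0.14) passed toward the neocortex with the length and GC correction, and Atp9a (0.12), Rtn3 (0.13) and Mbp (0.13) toward the hypothalamus with library totals alone.

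The region difference was then compared between virgin and primiparous females. In the test of the interaction of region and state, with the animal as a block, 0 of 13016 genes had an edgeR adjusted p below 0.05, and 306 had an unadjusted p below 0.05. Limma-voom and DESeq2 also gave 0 genes, with 330 and 318 at an unadjusted p below 0.05. State goes with the series of animal numbers, since 6 of the 7 animals with 4-digit numbers were virgin and 7 of the 9 with 3-digit numbers were primiparous, so the effects of state and number series on the region difference can barely be told apart. Over the 2087 genes called at 2-fold or more, which were chosen from these same animals, the median size of the difference between the states in log2 ratio was 0.117, and the largest was 2.96. The smallest interaction p-values belonged to Mdfi, Zfp395 and Scn3a. Scn3a, a sodium channel, had log2 ratios of 1.20 in virgin and 1.58 in primiparous females, and Zfp395, a zinc-finger gene, 1.40 and 1.85. Mdfi was at or below 1.04 CPM in every hypothalamus and neocortex library, and it met the filter on low counts only through libraries of other regions. After adjustment none of the 3 passed (edgeR adjusted p = 1).

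**Figure D5:**
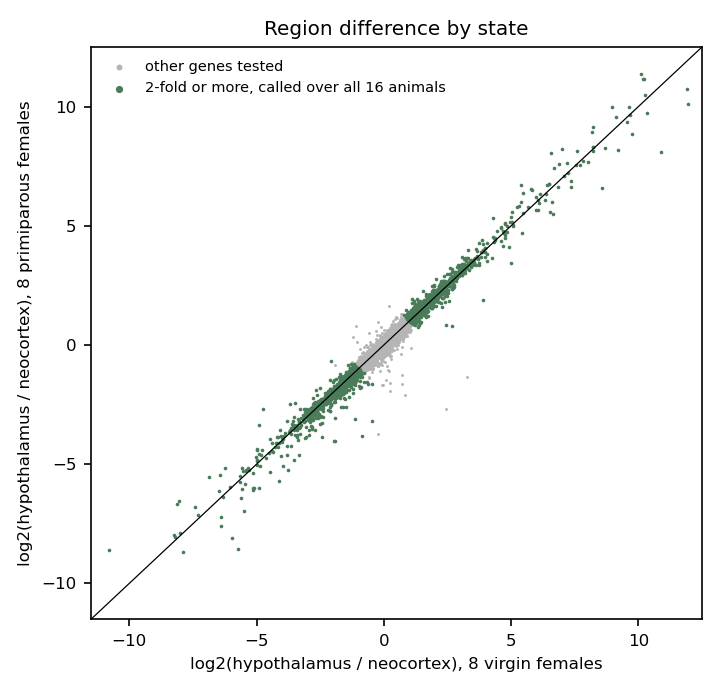
Fitted log2 ratio of hypothalamus to neocortex in the 8 virgin (horizontal) and 8 primiparous females (vertical), 1 point per gene tested, with the line of equality. The 2087 genes called at 2-fold or more (green) were chosen over the same 16 animals, so the direction they share is a description.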

How the data were processed

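Polyadenylated RNA of 5 brain regions was sequenced by the authors, who aligned the reads to mm10 with HISAT2 and counted uniquely mapped reads per gene with featureCounts. Versions and the strand setting are not given in the sources used here, so antisense and overlapping genes may share reads. The deposited counts are raw reads per gene (27179 genes, 77 libraries). The authors also deposited a log2 table described as log2(CPM + 4), whose values matched log2 of size-factor scaled counts plus 4, with a largest distance of 0.0159, and which served as an alternative only. Symbols came from RefSeq for 12899 of the 13016 tested genes.

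Genes reaching 5 CPM or more in 8 or more of all 77 libraries were tested with edgeR 4.0.16 (TMM, quasi-likelihood test, robust) on the 32 libraries, with the animal as a replicate block plus region, and p-values were adjusted by Benjamini-Hochberg over all genes. The regions are paired because they came from the same animals. Same-animal deviations from the group means correlated with a median r of 0.0472 (-0.37 to 0.326). CPM, RPKM, list counts and figures were computed from the counts in R 4.3.3 and Python 3.11.15. limma 3.58.1 and DESeq2 1.42.0 served as alternatives, and the tests were checked on simulated counts. Genes were named as the 12 with the largest ratio in each direction among called genes with at least 10 CPM in the higher region and no overlap, members of the gene lists, the 5 with ratios nearest 1 at 100 CPM or more, the 3 with the smallest interaction p and the 5 called genes most variable within animals. A few genes that this rule names are not reported here. Members and lists were chosen with earlier results of these data known, so lists are described by counts and medians with no set test. Alternatives covered the block, test, normalization, filter, length and GC, state, animal number series, left-out animals and pseudocount. Libraries of the other regions were not used beyond the filter.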

Additional observations from a re-analysis of the deposited data

Results flagged for a closer look

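A sample was singled out where its gap to the nearest of the other libraries was large for the range of its group of 8 (region and state), by Dixon's ratio at the 95% level. This was asked of the genes whose library range is given above and of 4 marker sums, 227 groups in all. Of these, 47 groups held such a sample. Chance gives about 1 group in 20 for values that vary smoothly, but not where a few reads decide the order, since 1 read among libraries with none always stands apart. In 29 of the groups the highest library was under 1 CPM, and 12 of these held such a sample, against 35 of the other 198. Each value is followed by that of the nearest library of its group.

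The primiparous animal 427 held such values for Cck in the neocortex (highest, 617 CPM against 386 CPM), Emx1 in the neocortex (highest, 39.1 CPM against 27.7 CPM), Gabrd in the neocortex (highest, 110 CPM against 89.7 CPM) and Npy in the neocortex (highest, 158 CPM against 107 CPM). It did so too for Nrgn in the neocortex (highest, 2367 CPM against 1640 CPM), Peg3 in the neocortex (lowest, 37.2 CPM against 123 CPM), Prl in the neocortex (highest, 78.5 CPM against 16.2 CPM) and Th in the hypothalamus (highest, 77.6 CPM against 58.1 CPM). It did so too for the pituitary marker sum in the neocortex (highest, 122 CPM against 22.2 CPM). The virgin animal 4490 held such values for Gabrd in the hypothalamus (highest, 8.55 CPM against 3.97 CPM), Krt12 in the hypothalamus (highest, 1.25 CPM against 0.533 CPM), Otp in the neocortex (highest, 0.142 CPM against 0 CPM) and Prl in the hypothalamus (highest, 115 CPM against 5.55 CPM). It did so too for Prl in the neocortex (highest, 27.4 CPM against 0.598 CPM), Slc17a7 in the hypothalamus (highest, 18.1 CPM against 4.21 CPM), the pituitary marker sum in the hypothalamus (highest, 176 CPM against 21.3 CPM) and the pituitary marker sum in the neocortex (highest, 37.5 CPM against 1.59 CPM). The virgin animal 4488 held such values for Avp in the neocortex (highest, 4.14 CPM against 1.59 CPM), Calcr in the neocortex (highest, 0.239 CPM against 0.0399 CPM), Emx1 in the hypothalamus (highest, 0.676 CPM against 0.043 CPM) and Igfn1 in the hypothalamus (highest, 0.526 CPM against 0.201 CPM). It did so too for Sim1 in the neocortex (highest, 0.159 CPM against 0 CPM). The primiparous animal 425 held such values for Adra1d in the hypothalamus (highest, 3.06 CPM against 1.1 CPM), Igf2 in the hypothalamus (highest, 49.1 CPM against 29.6 CPM), Rtn4rl2 in the hypothalamus (highest, 2 CPM against 0.799 CPM) and the meninges and fibroblast marker sum in the hypothalamus (highest, 576 CPM against 354 CPM). The primiparous animal 418 held such values for Calcr in the neocortex (highest, 0.0693 CPM against 0 CPM), Npas4 in the hypothalamus (highest, 12.3 CPM against 7.12 CPM), Npas4 in the neocortex (highest, 36.6 CPM against 24.3 CPM) and Pmch in the neocortex (highest, 0.277 CPM against 0.105 CPM). The primiparous animal 421 held such values for Camk2a in the hypothalamus (highest, 592 CPM against 509 CPM), Foxb1 in the neocortex (highest, 0.0692 CPM against 0 CPM) and Gabre in the neocortex (highest, 0.346 CPM against 0.139 CPM). The virgin animal 4489 held such values for Egr1 in the neocortex (highest, 396 CPM against 282 CPM), Igf2 in the hypothalamus (highest, 86.6 CPM against 25.4 CPM) and the meninges and fibroblast marker sum in the hypothalamus (highest, 939 CPM against 379 CPM). The primiparous animal 413 held such values for Kcnj4 in the hypothalamus (highest, 17 CPM against 10.8 CPM), Krt12 in the hypothalamus (highest, 1.82 CPM against 0.529 CPM) and Scn9a in the neocortex (highest, 3.5 CPM against 2.74 CPM). The virgin animal 4491 held such values for Krt12 in the neocortex (highest, 36 CPM against 30.5 CPM), Pgr15l in the hypothalamus (highest, 33.9 CPM against 24.7 CPM) and Pgr15l in the neocortex (highest, 0.0392 CPM against 0 CPM). The virgin animal 4486 held such values for 5031426D15Rik in the hypothalamus (highest, 0.469 CPM against 0.215 CPM). The virgin animal 405 held such values for Ddn in the neocortex (highest, 1459 CPM against 1255 CPM). The primiparous animal 415 held such values for Pgr15l in the neocortex (highest, 0.247 CPM against 0.105 CPM). The virgin animal 409 held such values for Ppp1cb in the hypothalamus (lowest, 184 CPM against 247 CPM). The virgin animal 4487 held such values for Tbr1 in the hypothalamus (highest, 6.39 CPM against 3.35 CPM). 

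The neocortex library of animal 427 is the one that stood apart from the other neocortex libraries. The part of adjoining tissue or RNA quality in these values was not tested.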

How the results depend on the processing

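The counts of genes called were within 1.5 times the reported ones under the alternatives tried apart from dropping the filter and keeping 3 animals. With no filter other than 1 count (22920 genes) 1969 and 2269 genes differed by 2-fold or more toward the hypothalamus and the neocortex, and 395 and 432 by 8-fold or more. In the 3 animals with low olfactory bulb markers in the neocortex 2801 and 2854 genes passed, with fewer samples fitted. Scaling by library totals alone moved the median log2 ratio of all genes to 0.113 and gave 6075 and 3858 calls toward the hypothalamus and the neocortex, and the replicate block with length and GC correction moved it to -0.149 with 3818 and 6679 calls, against 4877 and 5007. Without the replicate block 4890 and 5069 genes passed. Leaving out each animal in turn gave 4783 to 4971 and 4874 to 5038 genes, 1006 to 1049 and 1027 to 1058 at 2-fold or more, and 164 to 172 and 133 to 139 at 8-fold or more. The interaction of region and state gave 0 genes in all its alternatives, those without an animal included, with 218 to 643 genes at an unadjusted p below 0.05 (edgeR, limma or DESeq2) outside the fits by number series. The animals with 4-digit numbers alone gave 1685 such genes and those with 3-digit numbers 42, but the first holds 6 virgin animals and 1 primiparous animal and the second 2 virgin and 7 primiparous animals, and they say nothing of stability.

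Genes passing in neither fit were not counted as changing direction. Ratios changed direction with the length and GC correction for Clock (-0.015), Daam2 (-0.14), Mbp (-0.18), Pgr (-0.19), Ppp1cb (-0.36) and Rtn3 (-0.25), with library totals alone for Atp9a (0.12), and in the 3 animals for Clock (-0.041), Dlx1 (0.90), Dlx2 (1.02), Gh (-0.73), Omp (0.87) and Prl (-1.39). The cause was not tested. With a pseudocount of 1 in place of 4 the mean within-animal log2 difference of S100a5 moved from -1.94 to -3.27. Lowly counted genes are limited by depth, as the intervals of the ratios show.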
